A study of Mus musculus with 36 samples.

Results

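Genes that mark the steps of adult neurogenesis were followed in the hippocampus and cerebellum of *Pogz*-deficient mice: *Nes*, *Eomes*, *Neurog2*, *Sox4*, *Sox11*, *Dcx*, *Igfbpl1*, *Draxin* and *Calb2*. They were chosen by symbol, as genes of progenitors and newborn neurons of the dentate gyrus, and all 9 were found among the 24421 genes counted in each tissue. In the hippocampus, none of the 9 passed the test for a change with the number of *Pogz* alleles lost. Of all genes tested there, 4.44% passed. Among the members *Dcx* and *Nes* came nearest, with log2 fold changes of 0.19 and 0.22 per allele. In the cerebellum, where 6 members were tested and 13.7% of all genes tested were called, *Dcx* and *Sox4* rose. Their log2 fold changes were 0.37 and 0.24 per allele, at levels well below those in the hippocampus. Both calls were lost with a term for the range of numbers in the animal labels, within which all controls lie. That of *Sox4* was also lost when any of several single animals was left out.

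Poly(A) RNA was sequenced from both tissues of the same 18 adult C57Bl/6 mice, 3 females and 3 males of each genotype. Controls were Pogzfl/fl without Cre and keep 2 intact alleles, *Pogz* cKO+/- mice were NesCre/+; Pogzfl/+ with 1 intact allele in the nervous system, and *Pogz* cKO-/- mice were NesCre/+; Pogzfl/fl with 0. Cre was driven by the *Nestin* promoter and all controls lack it, so against controls the loss of *Pogz* and the presence of Cre cannot be told apart; cKO-/- and cKO+/- mice both carry Cre. Counts on genes ranged from 17609321 to 45544188 per hippocampal library and from 21421850 to 32544929 per cerebellar library.

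New granule neurons are added to the dentate gyrus throughout adult life. Radial glia-like stem cells that express the intermediate filament nestin give rise to dividing intermediate progenitors marked by *Eomes* (Tbr2) and the proneural factor *Neurog2*. Their daughters become neuroblasts and immature neurons that express the SoxC factors *Sox4* and *Sox11* and the microtubule-associated protein doublecortin (*Dcx*), pass through a stage marked by calretinin (*Calb2*), and then mature. The same genes have other sources in the brain: *Eomes* and *Calb2* mark unipolar brush cells of the cerebellum, *Calb2* also marks cerebellar granule cells and hippocampal interneurons, and *Nes* is found in some vascular cells. In whole tissue, fewer cells of a type and less RNA per cell cannot be told apart.

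By the coordinates of the deposited tables (GRCm38), the members lie on 7 chromosomes. *Dcx* lies at chrX:143855842-143933219, *Sox11* at chr12:27334268-27342718 and *Sox4* at chr13:28950730-28953682, all on the minus strand. *Sox4* and *Sox11* each consist of 1 exon block, with exon lengths of 2953 and 8451 bases, whereas *Dcx* has 7 blocks and 9155 bases. On the plus strand lie *Eomes* at chr9:118478189-118486132, *Nes* at chr3:87971093-87980451 and *Neurog2* at chr3:127633145-127635631, and on the minus strand *Igfbpl1* at chr4:45809507-45826827, *Draxin* at chr4:148098437-148130698 and *Calb2* at chr8:110142538-110168206. The 250 bases before the annotated start of *Dcx*, *Sox4* and *Sox11* are shown. These 3 had the largest allele effects in the cerebellum among the 6 members that passed the filter on low counts there. Sequences are from RefSeq (GRCm38.p6), where 7 of the 9 members had an entry, and are written 5′ to 3′ on the strand of the gene, with matches to the E-box letters CANNTG (searched on both strands, its own reverse complement) or to the SOX core ACAAT (and its reverse ATTGT) in capitals.
Dcx (chrX:143933220-143933469, minus strand): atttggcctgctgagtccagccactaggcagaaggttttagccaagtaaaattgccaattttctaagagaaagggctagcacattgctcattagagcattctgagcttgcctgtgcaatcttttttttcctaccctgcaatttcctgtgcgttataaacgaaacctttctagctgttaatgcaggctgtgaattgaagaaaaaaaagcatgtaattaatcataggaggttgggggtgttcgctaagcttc
Sox4 (chr13:28953700-28953949, minus strand): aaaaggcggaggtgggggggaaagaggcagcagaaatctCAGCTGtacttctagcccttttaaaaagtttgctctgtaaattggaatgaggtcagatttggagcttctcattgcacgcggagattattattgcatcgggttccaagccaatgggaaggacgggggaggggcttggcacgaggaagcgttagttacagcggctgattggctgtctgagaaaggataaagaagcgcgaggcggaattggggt
Sox11 (chr12:27342719-27342968, minus strand): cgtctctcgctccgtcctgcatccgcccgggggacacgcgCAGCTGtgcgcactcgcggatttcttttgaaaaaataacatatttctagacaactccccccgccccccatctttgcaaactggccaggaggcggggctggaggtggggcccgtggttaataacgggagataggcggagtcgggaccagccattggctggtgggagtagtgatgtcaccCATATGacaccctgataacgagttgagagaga
An E-box was found in 66.2% of 32841 RefSeq promoter windows of this length and a SOX core in 27.7%. *Sox4* held 1 E-box and *Sox11* held 2, and in both genes the copy farthest from the start read CAGCTG, between bases 211 and 206 before the start in *Sox4* and between 210 and 205 in *Sox11*. The *Dcx* window held neither set of letters, and none of these 3 windows held the SOX core. Among the other members with an entry, *Nes* and *Neurog2* held 1 SOX core each and *Draxin* 1 E-box. These are matches of letters and were not tested as binding sites.

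The targeted gene fell with each intact allele lost. *Pogz* was at 90.9 CPM ± 1.24 (SD, n = 6) in control, 76.4 ± 2.27 (n = 6) in cKO+/- and 61.7 ± 3.55 (n = 5) in cKO-/- hippocampus, with no overlap between genotypes; these counts cover exons that Cre leaves in place as well. In the cerebellum it ran from 89.6 to 130 CPM in control, 66.4 to 81.5 in cKO+/- and 57.0 to 74.0 in cKO-/- libraries, and the last 2 groups overlapped. CPM are counts scaled to a common library size with TMM factors computed within each tissue. The tissues were checked by *Neurod6*, a pyramidal neuron gene at 149 to 234 CPM in control hippocampus against 6.19 to 9.14 in control cerebellum, and by *Gabra6*, a granule cell receptor subunit at 910 to 1040 CPM in control cerebellum. The hippocampal library of the female cKO-/- mouse Sample_1160 (animals are named by the number in their label) stood apart: *Prox1*, the granule neuron factor of the dentate gyrus, was at 10.1 CPM there against 38.6 to 110 in the other hippocampal libraries, and *Calb2* was at 97.7 CPM. It was left out of the hippocampal results, leaving 17 libraries, and its values are given beside those of the members it moves most. The hippocampal library of control Sample_1129 held cerebellar transcripts, with *Gabra6* at 49.4 CPM against at most 1.09 in any other. Choroid plexus genes summed to 4884 CPM in that library. They summed to 4951 CPM in cKO-/- Sample_1385, 2364 in control Sample_1170, 1117 in cKO-/- Sample_1219 and 654 in cKO+/- Sample_1189. The other hippocampal libraries held at most 152 CPM. Among cerebellar libraries, those of Sample_933, Sample_936 and Sample_1433 were rich in choroid plexus genes, with a summed level of 2351 to 3160 CPM over the 6 genes of that list against at most 78.4 in the others. All controls carry numbers from Sample_1120 to Sample_1219, whereas 3 cKO+/- and 4 cKO-/- mice lie outside that range; what the numbers stand for is not given in the sources used here.

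In control hippocampus the members spanned a wide range of levels. Per kilobase of exon (RPKM), *Calb2* was highest at 22.2 ± 10.1 (SD, n = 6), followed by *Sox4* at 5.32 ± 0.970, *Sox11* at 3.03 ± 0.154, *Dcx* at 2.68 ± 0.326, *Igfbpl1* at 1.82 ± 0.379, *Nes* at 1.60 ± 0.307, *Neurog2* at 0.828 ± 0.125, *Draxin* at 0.424 ± 0.116 and *Eomes* at 0.260 ± 0.0487. The ranges of *Sox11* and *Dcx*, of *Igfbpl1* and *Nes*, and of *Draxin* and *Eomes* overlapped, and the other neighbours in this order did not. In control cerebellum the order was different: *Calb2* at 410.3 RPKM and *Eomes* at 9.49 led, *Nes* followed at 2.58 and *Sox4* at 1.91, while *Dcx* was at 0.564 and *Sox11* at 0.468.

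**Figure D1:**
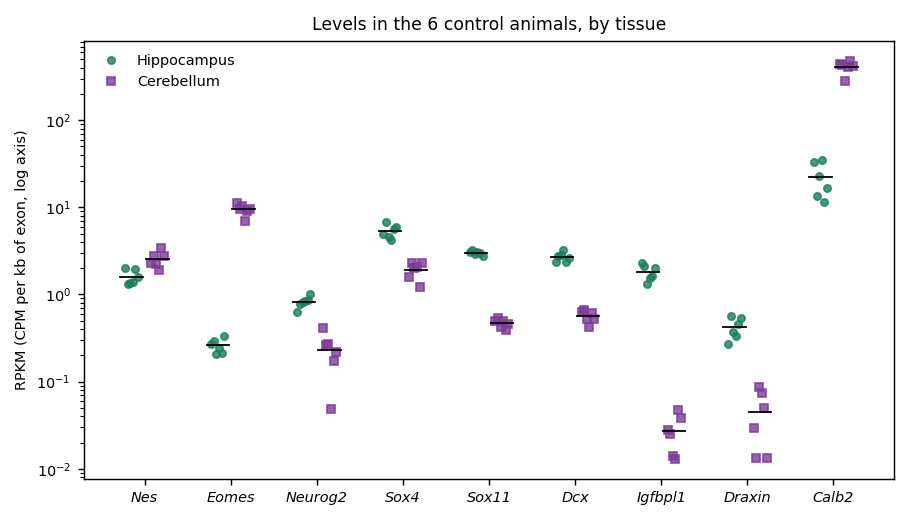
Levels of the 9 genes in the 6 control animals as RPKM on a log axis, with green circles for hippocampal and purple squares for cerebellar libraries and a black line at each mean. *Calb2* and *Eomes* lie far higher in the cerebellum, *Nes* overlaps between the tissues, and the other 6 genes lie higher in the hippocampus.

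Between control tissues, 8 of the 9 members did not overlap; of the 6 members that passed the filter in both tissues 5 did not, where 52.1% of the 13587 genes that passed it did not. *Dcx* averaged 24.5 CPM in the hippocampus and 5.16 in the cerebellum, a ratio of 4.75, and *Sox11* averaged 25.6 against 3.95, a ratio of 6.47. *Sox4* was 2.78 times, *Neurog2* 3.59 times and *Draxin* 9.54 times as high in the hippocampus. *Igfbpl1*, a secreted IGF binding protein-like gene of newborn neurons, averaged 4.97 CPM in control hippocampus, while control cerebellum held only 1 to 4 counts per library, a ratio of 66.5. The reverse held for *Eomes*, 36.4 times as high in the cerebellum (35.2 against 0.967 CPM), and for *Calb2*, 18.5 times as high (587 against 31.8 CPM). *Nes* averaged 9.78 CPM in the hippocampus and 15.8 in the cerebellum, with overlapping ranges. Each of the 8 separated genes reached the smallest value that 6 against 6 allows (exact 2-sided permutation test, p = 0.0022). This follows from the lack of overlap and adds nothing to it. *Nes* gave p = 0.0065 by the same exact permutation test. That test took all libraries as independent, although each animal gave both tissues, so these p-values ignore the pairing. All 6 members that passed the filter on low counts in both tissues were called (edgeR, adjusted p from 1.4e-12 for *Eomes* to 0.0017 for *Nes*), where 70.3% of the 13587 genes tested were called. The ratios above use CPM scaled within each tissue, whereas this fit scaled both tissues together. Its log2 differences, hippocampus minus cerebellum, were 2.35 for *Dcx*, 2.79 for *Sox11* and 1.56 for *Sox4*. They were -5.10 for *Eomes*, -4.20 for *Calb2* and -0.57 for *Nes*. Leaving out control Sample_1129, whose hippocampal *Calb2* was 47.9 CPM, left all 6 calls.

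The question put to the hippocampus was whether expression followed the number of *Pogz* alleles lost. None of the 9 members was called at a false discovery rate of 0.05 by edgeR, where 4.44% of 14339 genes were; *Dcx* and *Nes* had an unadjusted p under 0.05. The median log2 fold change per allele lost was 0.0095 over the 9 members, with 6 above 0, and 0.0017 over all genes tested.

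**Figure D2:**
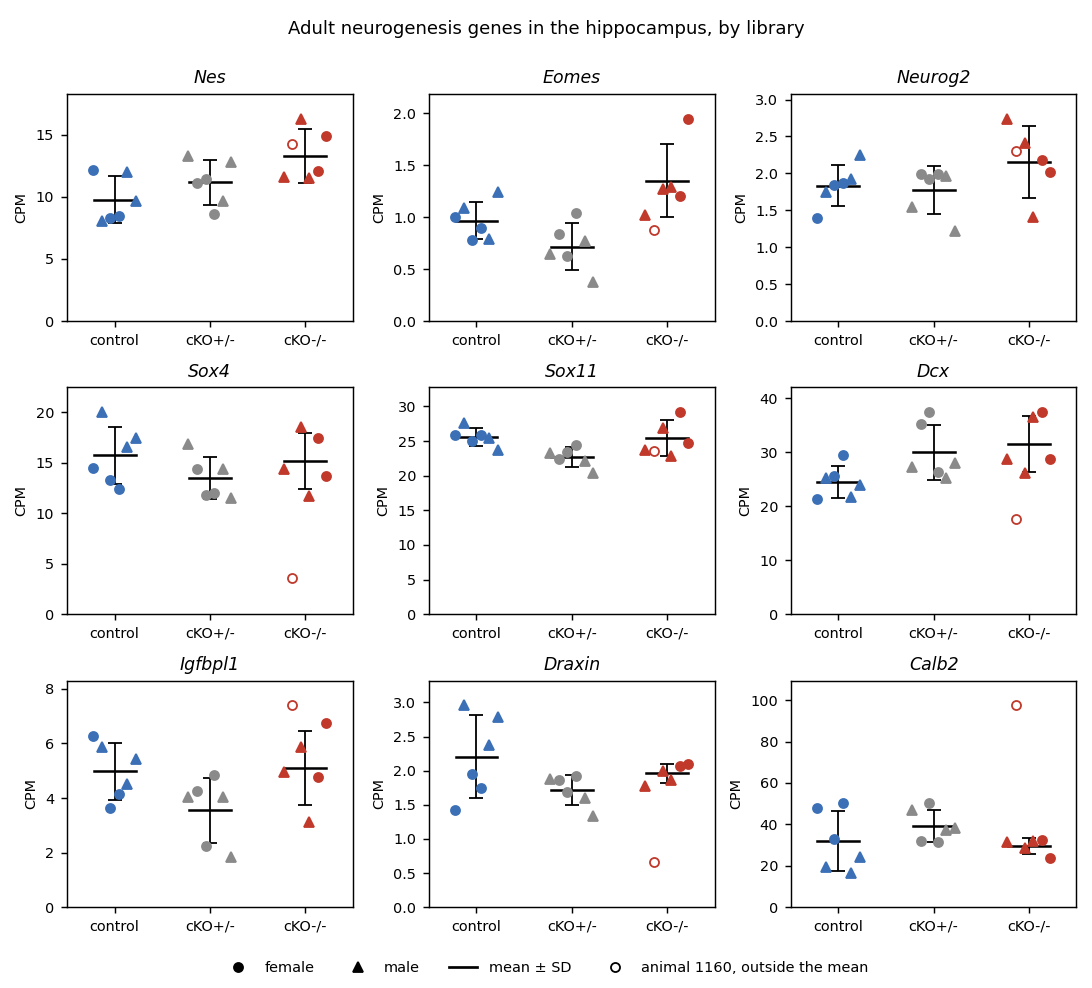
CPM of each gene in every hippocampal library, by genotype, with circles for females, triangles for males and black lines for the mean and SD of each genotype. The open circle is the cKO-/- library of Sample_1160, which stands outside the mean and lies far from the other cKO-/- libraries for *Sox4* (3.62 CPM), *Calb2* (97.7 CPM) and *Draxin* (0.667 CPM).

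Among the progenitor genes, *Nes* ran from 8.09 to 12.2 CPM in controls (median 9.07) and from 8.59 to 13.3 in cKO+/- mice (median 11.3). In the 5 cKO-/- libraries it was at 11.5, 11.6, 12.1, 14.9 and 16.3 CPM. All 5 cKO-/- values lay above the control median and 2 lay above every control, and the groups overlapped. The log2 fold change per allele lost was 0.22 (SE 0.070, adjusted p = 0.087). Without control Sample_1129, the highest control, the remaining 5 controls averaged 9.30 CPM ± 1.63 (SD) and *Nes* was called at a log2 fold change of 0.26 (adjusted p = 0.038); with library Sample_1160, where it was at 14.2 CPM, the value was 0.23 (adjusted p = 0.11). Vascular genes were read beside *Nes*: all 7 endothelial and pericyte genes had a positive allele effect and 3 were called (*Rgs5*, *Kdr* and *Pecam1*), and their summed level was 117 to 144 CPM in control, 105 to 179 in cKO+/- and 141 to 208 in cKO-/- hippocampus. Choroid plexus genes were read there as well. The cKO-/- values above every control were those of Sample_1219 and Sample_1385, which held 1117 and 4951 CPM of these genes. Control Sample_1129 held 4884 CPM of them, and control Sample_1170, at 2364 CPM, had *Nes* at 8.28 CPM. The part of vascular cells or choroid plexus in the *Nes* values, and in the call without Sample_1129, was not tested.

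*Eomes*, the intermediate progenitor factor, was sparsely counted in the hippocampus, with 9 to 52 counts per library. It ran from 0.778 to 1.24 CPM in controls (median 0.950) and from 0.378 to 1.04 in cKO+/- mice (median 0.706). The cKO-/- libraries gave 1.02, 1.21, 1.27, 1.29 and 1.95 CPM, the last in Sample_1385. The cKO+/- mice averaged 0.717 CPM, below controls at 0.967, and cKO-/- mice averaged 1.35. The log2 fold change per allele was 0.23 (SE 0.13, adjusted p = 0.35). *Neurog2* was steadier: controls ran from 1.39 to 2.25 CPM (median 1.85), cKO+/- mice from 1.22 to 2.0 (median 1.94), and cKO-/- libraries were at 1.41, 2.03, 2.18, 2.40 and 2.74. Its log2 fold change per allele lost was 0.11 (SE 0.087, adjusted p = 0.48).

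Of the immature neuron genes, *Dcx* had the smallest p of all members. Controls ran from 21.4 to 29.4 CPM (median 24.6), cKO+/- mice from 25.3 to 37.5 (median 27.7), and the cKO-/- libraries were at 26.2, 28.7, 28.7, 36.6 and 37.5. Every cKO-/- value lay above the control median, 2 lay above every control, and the ranges overlapped. *Dcx* averaged 24.5 ± 2.98 CPM (SD, n = 6) in control, 30.0 ± 5.08 (n = 6) in cKO+/- and 31.5 ± 5.17 (n = 5) in cKO-/- hippocampus. Its log2 fold change for each allele lost was 0.19 (SE 0.056, 95% interval 0.071 to 0.31, adjusted p = 0.061). This value lay close to the threshold: DESeq2 called it (adjusted p = 0.019), as did edgeR without Sample_1120, Sample_1219 or Sample_1385 (adjusted p = 0.045, 0.043 and 0.035). With library Sample_1160, where *Dcx* was at 17.6 CPM, the lowest of all, the log2 fold change was 0.13 (adjusted p = 0.40), and a term for the range of animal numbers also gave 0.13 (adjusted p = 0.83).

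*Sox11* was the steadiest member, with an SD of 5.08% of the mean in controls. It ran from 23.6 to 27.6 CPM in controls (median 25.7), from 20.4 to 24.5 in cKO+/- mice (median 22.9), and was at 22.8, 23.7, 24.7, 26.8 and 29.2 in cKO-/- mice. Its log2 fold change per allele lost was -0.0076 (SE 0.038, adjusted p = 0.94), with a 95% interval from -0.089 to 0.074. *Sox4* ran from 12.4 to 20.1 CPM in controls (median 15.6), from 11.5 to 16.9 in cKO+/- mice (median 13.2), and was at 11.7, 13.7, 14.4, 17.5 and 18.5 in cKO-/- mice, with a log2 fold change of -0.037 (SE 0.067, adjusted p = 0.79). In library Sample_1160, *Sox4* was at 3.62 CPM while *Sox11* was at 23.6, within the range of the other cKO-/- libraries. With that library the cKO-/- mean of *Sox4* went from 15.2 to 13.2 CPM and its allele effect was -0.13 on the log2 scale (adjusted p = 0.57).

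*Igfbpl1* was low in 2 cKO+/- libraries. Controls ran from 3.63 to 6.27 CPM (median 4.96), cKO+/- mice from 1.85 to 4.84 (median 4.04), and cKO-/- libraries were at 3.11, 4.77, 4.96, 5.85 and 6.75. The lowest 2 values were those of cKO+/- Sample_1433 and Sample_1120, and the log2 fold change per allele was 0.0036 (SE 0.13, adjusted p = 0.99). *Draxin*, a secreted axon guidance protein, ran from 1.42 to 2.97 CPM in controls (median 2.16) and from 1.34 to 1.92 in cKO+/- mice (median 1.78), and was at 1.77, 1.86, 2.0, 2.07 and 2.10 in cKO-/- mice. These 5 cKO-/- values lay below the control median, inside the control range, at -0.10 per allele on the log2 scale (SE 0.087, adjusted p = 0.54). Library Sample_1160, at 0.667 CPM, lay below every control; with it the cKO-/- mean went from 1.96 to 1.74 CPM and the allele effect to -0.17 (adjusted p = 0.41).

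In control hippocampus, females and males did not overlap for 3 of the 9 members, *Calb2*, *Sox4* and *Draxin*, as was true of 24.7% of all genes tested. For *Calb2* the 3 control females ran from 32.8 to 50.3 CPM and the 3 control males from 16.4 to 24.1. Control females were the lower sex for *Sox4*, at 12.4 to 14.5 CPM against 16.6 to 20.1, and for *Draxin*, at 1.42 to 1.95 against 2.37 to 2.97. In cKO+/- mice, females ran from 31.7 to 50.2 CPM and males from 37.4 to 46.9, and in cKO-/- mice 2 females were at 23.6 and 32.5, the third, Sample_1160, at 97.7, and the males between 28.4 and 31.9. Without Sample_1160, the log2 fold change per allele lost was 0.0095 over both sexes (SE 0.13, adjusted p = 0.98), -0.31 in females and 0.31 in males. *Draxin* went the other way, with an effect of 0.14 in females and -0.27 in males. Library Sample_1160 turned both female effects: with it the cKO-/- mean of *Calb2* went from 29.6 to 40.9 CPM, above the control mean of 31.8, its allele effect was 0.20 over both sexes (adjusted p = 0.47) and 0.12 in females, and the female effect of *Draxin* was -0.057. Neither difference between the sexes passed the test (edgeR interaction, adjusted p = 0.79 for both, and 0.88 for *Calb2* and 0.80 for *Draxin* with Sample_1160), and no member was called there, as was true of 0% of the genes tested in the hippocampus and 0% in the cerebellum; 2 hippocampal members and 0 cerebellar ones had an unadjusted p under 0.05, and DESeq2 also called none. Female controls include Sample_1129, which held cerebellar transcripts, and without it the 5 remaining controls averaged 28.6 CPM ± 13.6 (SD).

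Pairs of genotypes were compared next, with 1 model for all 3 genotypes. Between cKO-/- and control hippocampus, no member was called (4.87% of genes tested were), with log2 fold changes of 0.38 for *Dcx* (SE 0.11, adjusted p = 0.060), 0.44 for *Nes* (SE 0.14, adjusted p = 0.090) and 0.50 for *Eomes* (SE 0.21, adjusted p = 0.18). None of the 9 members had cKO-/- and control values without overlap, against 3.65% of all genes tested. Between cKO+/- and control, 0.0349% of genes were called and no member; *Dcx* was at 0.28, *Sox11* at -0.17, *Igfbpl1* at -0.48 and *Draxin* at -0.33 on the log2 scale, each with an unadjusted p under 0.05 and an adjusted p of 0.32 or more. In the comparison that has Cre on both sides, cKO-/- against cKO+/-, 0.718% of genes were called and no member. *Eomes* had the largest difference there, a log2 fold change of 0.92 (SE 0.22, adjusted p = 0.067), followed by *Igfbpl1* at 0.52 (SE 0.24, adjusted p = 0.26), and *Dcx* was at 0.094 (SE 0.11, adjusted p = 0.66). DESeq2 called *Eomes* in that pair (adjusted p = 0.020) and *Dcx* and *Nes* between cKO-/- and control (adjusted p = 0.020 and 0.043). Without cKO-/- Sample_1385, the highest for *Eomes*, its log2 fold change in that pair was 0.74 (adjusted p = 0.29). The 3 pairs share groups, so their values for a gene are not independent.

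Other genes of the neurogenic lineage and its neighbours were read in the same hippocampal fit. Over these lists, chosen with earlier results known, 19 of 113 genes tested were called (16.8%), 10 higher and 9 lower with alleles lost. Over all genes tested in the hippocampus, 4.44% were called. Of 16 radial glia-like stem cell genes, *Fabp7* (brain lipid-binding protein) and *Hopx* rose, *Thrsp* fell, and the other 13 did not pass. *Fabp7* went from 17.8 ± 2.10 CPM (SD, n = 6) in controls to 42.9 ± 6.72 (n = 5) in cKO-/- mice, or 0.63 per allele on the log2 scale (SE 0.069, adjusted p = 2.7e-05), and *Hopx* from 55.7 to 80.7 CPM in controls to 93.8 to 116 in cKO-/- mice, at 0.33 per allele on the log2 scale (SE 0.046, adjusted p = 0.00035). Both genes are also expressed by mature astrocytes. None of the 8 measured genes of dividing cells was called; *Mki67*, the Ki67 gene, averaged 4.93 ± 1.02 CPM in controls and 5.10 ± 0.445 in cKO-/- mice. The replication genes *Mcm6* and *Pcna*, the highest of that list, had log2 fold changes of -0.0025 and 0.0047 per allele.

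Of 20 further genes of newborn and immature neurons, 2 rose and 2 fell. *Dpysl3*, a partner of the growing cytoskeleton, and the semaphorin *Sema3c* rose by 0.16 and 0.28 on the log2 scale per allele (adjusted p = 0.042 and 0.026). *Marcksl1* and the transcription factor *Bhlhe22* fell by 0.18 and 0.23 (adjusted p = 0.0097 and 0.041). The median over the 20 genes was -0.016, against 0.0017 over all genes. In the list of 10 mature granule cell genes, *Tdo2* rose by 0.42, *C1ql2* and *Dsp* fell by 0.45 and 0.56 per allele, and the other 7 did not pass. *Dsp*, the desmosomal protein desmoplakin, ran from 82.9 to 191 CPM in controls and from 49.9 to 73.9 in cKO-/- mice (adjusted p = 0.012), and *C1ql2*, a secreted synaptic protein, from 110 ± 20.2 to 58.2 ± 12.1 (adjusted p = 0.0073). *Prox1* itself averaged 79.2 CPM ± 20.9 in controls and 65.3 ± 4.87 in cKO-/- mice and was not called.

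Lists of other cells that may hold the members' transcripts gave the following counts. Among 5 genes of *Calb2*-type interneurons, *Penk* (proenkephalin) rose by 0.43 per allele (adjusted p = 0.0029), and among 5 mossy cell genes *Calcrl* rose by 0.34 while *Drd2* and *Nmb* fell by 0.29 and 0.20. No Cajal-Retzius gene of 5, oligodendrocyte precursor gene of 7, olfactory-type neuroblast gene of 6, choroid plexus gene of 6, cerebellar granule cell gene of 4 or gene of cerebellum identity of 2 was called. Of 8 thalamic genes *Prkcd* fell by 0.44 (adjusted p = 0.038), and of 6 hippocampus identity genes *C1ql2* was the one called. The summed level of the choroid plexus genes ran from 28.9 to 4884 CPM in controls and from 19.4 to 4951 in cKO-/- mice.

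In the cerebellum the same test called 2 of the 6 members that passed the filter, *Dcx* and *Sox4*, both higher. Over all genes tested there, 13.7% of 14027 were called, and 7.11% of all genes tested were called higher. The median log2 fold change per allele lost was 0.16 over these 6 members, with 5 above 0, and 0.00087 over all genes. *Igfbpl1*, *Neurog2* and *Draxin* did not pass the filter and were left out of these counts.

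**Figure D3:**
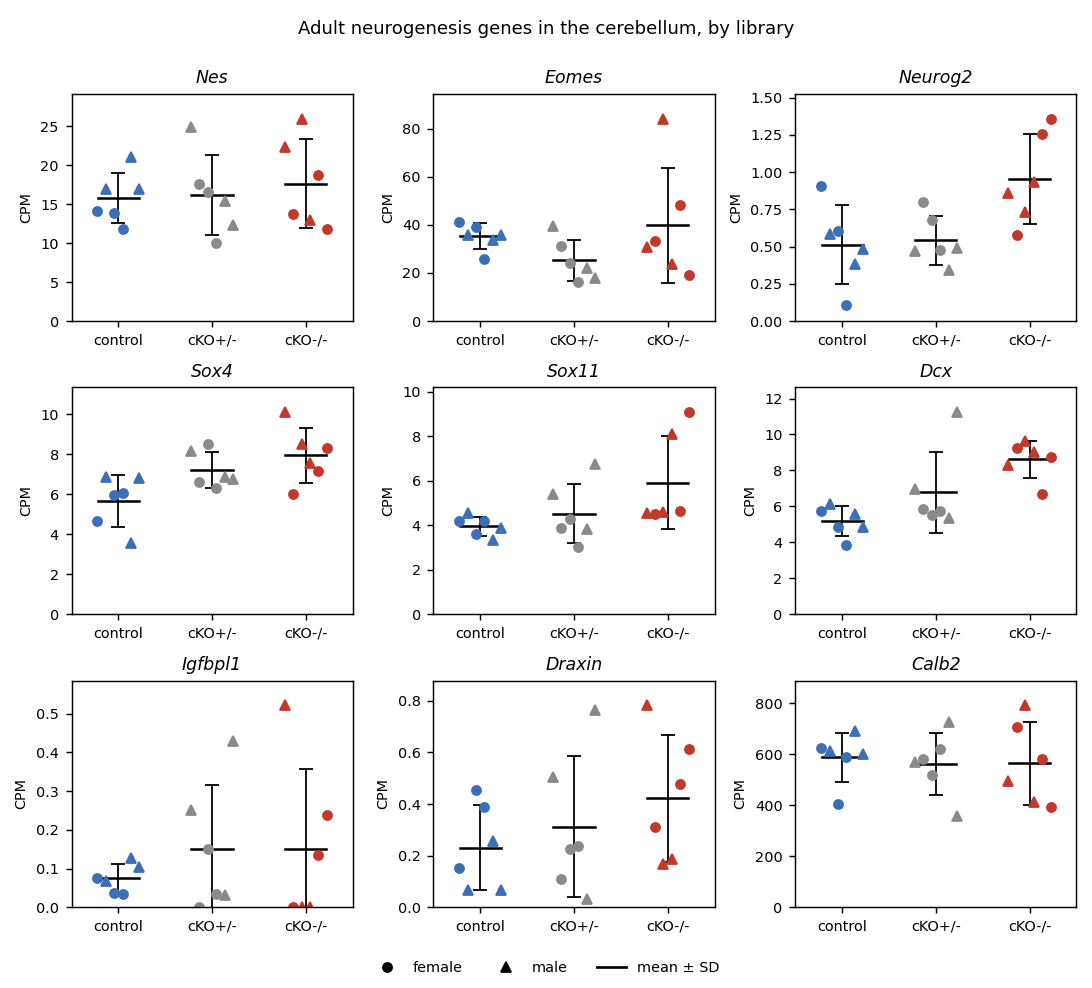
CPM of each gene in every cerebellar library, by genotype, with circles for females, triangles for males and black lines for the mean and SD (n = 6). All 6 cKO-/- libraries lie above every control for *Dcx*, and 5 of 6 do for *Sox4* and *Sox11*.

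*Dcx* in control cerebellum ran from 3.83 to 6.15 CPM (median 5.21), resting on 108 to 179 counts per library. In cKO+/- mice it ran from 5.35 to 11.3 (median 5.80), and in cKO-/- mice from 6.70 to 9.66 (median 8.88). All 6 cKO-/- libraries lay above all 6 controls, the only member of the 6 tested without overlap, where 4.58% of all genes tested had none (exact 2-sided permutation test, p = 0.0022, the smallest that 6 against 6 allows). The mean was 5.16 ± 0.836 CPM (SD, n = 6) in control, 6.78 ± 2.27 in cKO+/- and 8.61 ± 1.04 in cKO-/- cerebellum, 1.67 times the control mean in the last group. The log2 fold change per allele lost was 0.37 (SE 0.076, adjusted p = 0.0046), and it was between 0.34 and 0.40 with any single animal left out, with a call each time. The term for the number range gave 0.33 (adjusted p = 0.056), and among Sample_1120 to Sample_1219 alone it was 0.39 (adjusted p = 0.033). The highest value, 11.3 CPM, was that of the cKO+/- library of Sample_1433, and the next in that group was 6.95.

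Control cerebellum held *Sox4* at 3.55 to 6.84 CPM (median 6.01), against 6.31 to 8.53 in cKO+/- mice (median 6.81) and 6.03 to 10.1 in cKO-/- mice (median 7.94). Of the 6 cKO-/- libraries, 5 lay above every control. The log2 fold change per allele lost was 0.24 (SE 0.077, adjusted p = 0.040). This call was near the threshold: leaving out Sample_936, Sample_1129, Sample_1172, Sample_1190, Sample_1371 or Sample_1385 ended it, with an adjusted p between 0.052 and 0.092, and so did the term for the range of animal numbers (log2 fold change 0.22, adjusted p = 0.28).

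*Sox11* followed a different pattern across animals. Controls ran from 3.33 to 4.54 CPM (median 4.03), cKO+/- mice from 3.04 to 6.74 (median 4.07) and cKO-/- mice from 4.51 to 9.11 (median 4.61). The other cKO-/- libraries lay between 4.51 and 4.62, whereas Sample_1371 and Sample_1385 were at 8.10 and 9.11. The log2 fold change per allele was 0.29 (SE 0.10, adjusted p = 0.063). Without Sample_1385 it was 0.19 (adjusted p = 0.22), and DESeq2 called it with all animals (adjusted p = 0.040). The libraries high for *Sox11* (Sample_1371, Sample_1385 and Sample_1433) were also low for cerebellar granule cell genes, with a summed level of 2903 to 3359 CPM over the 6 genes of that list, against 4659 to 5464 in controls; Sample_1379, at 4.62 CPM of *Sox11*, was at 3859. *Slc17a6*, a vesicular glutamate transporter of brainstem and thalamic neurons, was at 121 and 105 CPM in Sample_1385 and Sample_1433, 59.0 and 66.7 in Sample_933 and Sample_936, and 25.8 in Sample_1371, against at most 9.52 in controls. Their part in the *Sox11* values was not tested. Without Sample_1371, Sample_1379, Sample_1385 and Sample_1433, *Dcx* was at a log2 fold change of 0.37 (adjusted p = 0.0069) and *Sox4* at 0.27 (adjusted p = 0.13). Without the choroid-rich libraries they were at 0.38 (adjusted p = 0.0019) and 0.21 (adjusted p = 0.099). The *Sox4* effect thus stayed near its value of 0.24 with all libraries, and its call was lost in these smaller sets.

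*Eomes*, *Calb2* and *Nes*, the members with the highest cerebellar levels, were not called. *Eomes* ran from 25.7 to 41.4 CPM in controls (median 35.8), from 16.4 to 39.5 in cKO+/- mice (median 23.1) and from 19.1 to 84.3 in cKO-/- mice (median 32.1), and its log2 fold change was 0.083 (SE 0.15, adjusted p = 0.75). The highest value was that of cKO-/- Sample_1219, without which the effect was -0.11. *Calb2* ran from 405 to 691 CPM in controls (median 606), from 359 to 728 in cKO+/- mice (median 575) and from 394 to 794 in cKO-/- mice (median 538), with a log2 fold change of -0.028 (SE 0.088, adjusted p = 0.87). *Nes* ran from 11.8 to 21.0 CPM in controls (median 15.5), from 10.1 to 25.0 in cKO+/- mice (median 16.0) and from 11.9 to 26.0 in cKO-/- mice (median 16.2), with a log2 fold change of 0.081 (SE 0.092, adjusted p = 0.59).

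Few reads fell on the other 3 members in the cerebellum. *Neurog2* had 3 to 24 counts per control library and 13 to 40 per cKO-/- library, at 0.512 CPM ± 0.266 (SD, n = 6) and 0.953 ± 0.302; in a fit with no filter its log2 fold change per allele was 0.45 (adjusted p = 0.096). *Draxin* had 1 to 25 counts per library and a log2 fold change of 0.44 in that fit (adjusted p = 0.37). *Igfbpl1* had 0 to 14 counts per library, with 14 in cKO-/- Sample_936 and in cKO+/- Sample_1433, both of which had choroid-rich libraries, and a log2 fold change of 0.50 (adjusted p = 0.50).

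By pairs of genotypes, *Dcx* and *Sox4* were called between cKO-/- and control cerebellum, with log2 fold changes of 0.74 (SE 0.16, adjusted p = 0.0063) and 0.49 (SE 0.15, adjusted p = 0.043), where 12.7% of genes were called; DESeq2 called both and also *Sox11* (log2 fold change 0.58, adjusted p = 0.045). Neither was called between cKO+/- and control (0.38 and 0.35 on the log2 scale, adjusted p = 0.39 for both, 0.342% of genes called) or between cKO-/- and cKO+/- (0.36 and 0.14, adjusted p = 0.49 and 0.84, 0.413% of genes called). In the last pair *Eomes* had the largest difference, as it did in the hippocampus, with a log2 fold change of 0.66 (SE 0.29, adjusted p = 0.49). Both pairs had 2 members with an unadjusted p under 0.05.

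**Figure D4:**
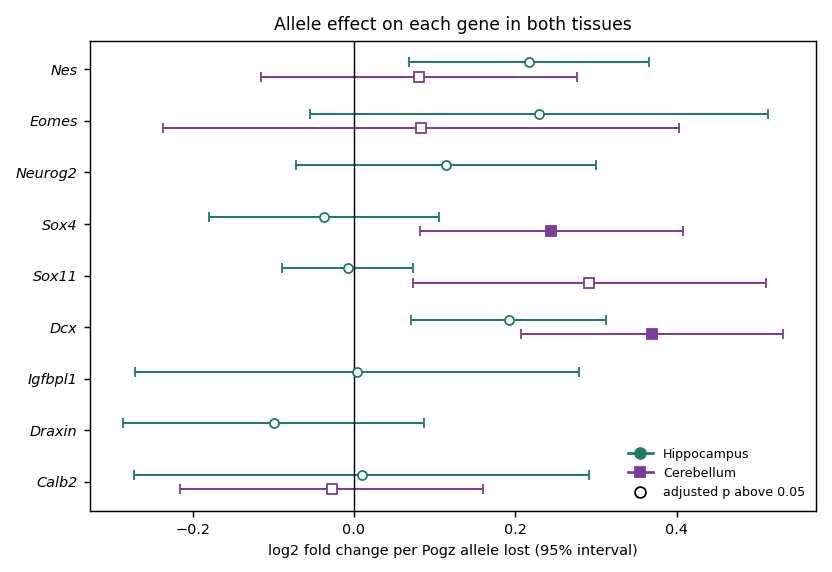
Log2 fold change per *Pogz* allele lost with its 95% interval for each gene, with green circles for the hippocampus and purple squares for the cerebellum. Filled symbols have an adjusted p under 0.05, which holds for *Dcx* and *Sox4* in the cerebellum alone, and *Neurog2*, *Igfbpl1* and *Draxin* were not tested there.

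Whether the allele effect differed between the tissues was tested directly for the 6 members that passed the filter in both. None was called, where 1.49% of 13587 genes were. *Sox11* and *Sox4* had the largest differences, with hippocampal minus cerebellar values of -0.31 (SE 0.11, adjusted p = 0.18) and -0.29 (SE 0.10, adjusted p = 0.18) on the log2 scale; both had an unadjusted p under 0.05. For *Dcx* the difference was -0.19 (SE 0.095, adjusted p = 0.39), with effects of 0.19 and 0.37 in the same direction. *Nes*, *Eomes* and *Calb2* gave 0.13, 0.14 and 0.028 with adjusted p of 0.70, 0.86 and 0.96. With the animal as a block no member was called either, although calls over all genes went from 203 to 338, and *Sox4* was then at -0.34 (adjusted p = 0.082). Of 16 other immature neuron genes tested in the cerebellum, *Dpysl3* rose by 0.33 per allele, *Dpysl5* fell by 0.13 and 14 were not called.

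Markers of other cells were read beside *Dcx* and *Sox4* in the cerebellum. Of 15 radial glia-like stem cell genes tested there, 4 rose, the glial filament gene *Gfap* by 0.52, *Fabp7* by 0.49, the lysophosphatidic acid receptor *Lpar1* by 0.32 and *Hopx* by 0.29 on the log2 scale per allele (adjusted p = 0.0047, 0.0017, 0.0027 and 0.0032), and 7 of the 15 had a positive effect. The summed level of that list had a minimum of 1026 and a median of 1082 CPM in control cerebellum, and ran from 1232 to 1339 in cKO+/- mice, all above every control, and from 1118 to 1500 in cKO-/- mice. In the list of olfactory-type neuroblasts, 1 of the 2 genes tested rose, the GABA-synthesising enzyme gene *Gad2* by 0.25 (adjusted p = 0.012). The other gene had a negative effect of -0.32 and was not called (adjusted p = 0.27). *Gad2* averaged 204 CPM in control cerebellum, so its level there is not particular to neuroblasts. Of 5 genes of dividing cells, the mitotic regulator *Cdc20* fell by 0.73 per allele (adjusted p = 9.0e-06) and 4 were not called. None of 7 oligodendrocyte precursor genes was called, but 6 had a positive effect, and their summed level was 228 to 292 CPM in control, 261 to 460 in cKO+/- and 235 to 479 in cKO-/- cerebellum. Over all lists other than the members, 13 of 95 genes tested were called there (13.7%), 9 higher and 4 lower. This equals the share over all genes tested in the cerebellum, 13.7%. The part of these cells in the *Dcx* and *Sox4* values was not tested.

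Across the 17 hippocampal libraries, after removal of sex and allele number, *Dcx* was compared with each of the other 8 members. The allele term was linear, so departures of cKO+/- mice from a straight line stayed in the residuals. *Igfbpl1* averaged 3.55 CPM in cKO+/- mice, below 4.97 in controls and 5.09 in cKO-/- mice. In these 17 only *Igfbpl1* gave a correlation beyond -0.4 or 0.4, at Pearson r = -0.62 (permutation p = 0.0065, adjusted p = 0.052 over 8 comparisons) and Spearman rho = -0.69 (permutation p = 0.0027, adjusted p = 0.022). Without the 2 libraries farthest from the median of *Dcx* (Sample_1129 and Sample_1385), r was -0.51. Among the 10 libraries of Sample_1120 to Sample_1219 r was -0.66, and among the other 7 it was -0.55; by genotype it was -0.26 in 6 controls and -0.56 in 6 cKO+/- mice, and the 5 cKO-/- libraries, too few for an r of their own, stood in exactly opposite orders for the 2 genes. Among 8 females r was -0.79 and among 9 males -0.45. The lowest *Dcx* residuals were those of Sample_1129, Sample_1385 and Sample_1219, which also had the highest *Igfbpl1* residuals. These libraries held 4884, 4951 and 1117 CPM of choroid plexus genes, and Sample_1129 also held cerebellar transcripts. Sample_1170 and Sample_1189, at 2364 and 654 CPM, had *Igfbpl1* residuals of -0.28 and -0.045. The part of other tissue in the correlation was not tested. The other 7 members gave r between -0.35 and 0.25, with adjusted p between 0.47 and 0.86. Library Sample_1160 reversed the values of *Sox4* and *Calb2*, to r = 0.59 and -0.31 over 18 libraries, and moved *Draxin* from 0.046 to 0.58. Over those 18 the adjusted permutation p was 0.066 for both *Sox4* and *Draxin*, with rho at 0.065 and 0.20, and r without the 2 farthest libraries, Sample_1160 among them, was 0.11 and 0.23.

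**Figure D5:**
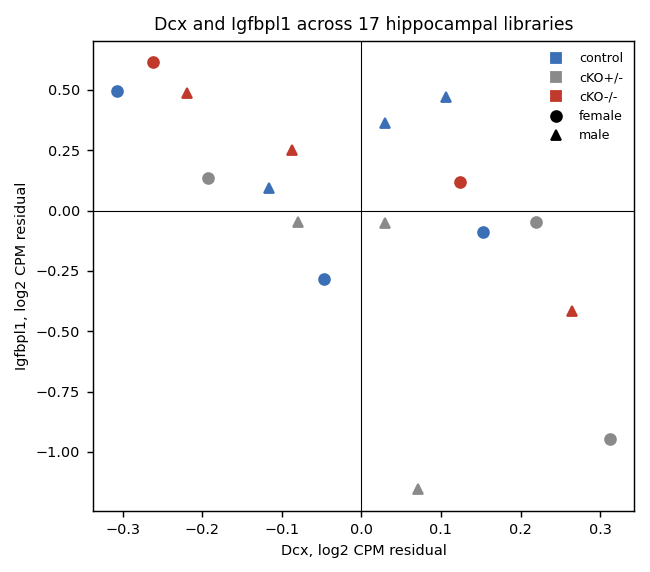
Residual log2 CPM of *Igfbpl1* (y axis) against *Dcx* (x axis) in 17 hippocampal libraries after removal of sex and allele number, with colours for genotypes and circles for females and triangles for males. Libraries above their fitted *Dcx* level tend to lie below their fitted *Igfbpl1* level (r = -0.62), and the lowest 2 *Igfbpl1* values are cKO+/- Sample_1433 and Sample_1120. The choroid-rich libraries of Sample_1129, Sample_1385 and Sample_1219 have the lowest *Dcx* and the highest *Igfbpl1* residuals.

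The 5 genes whose log2 CPM was most like that of *Dcx* over the 17 libraries, of 14338 compared, were *Cd200* (r = 0.89), *Arpp21* (0.88), *Tmem206* (0.86), *Hmgcll1* (0.86) and *Zfp82* (0.84). None is a member or belongs to the lists read above. *Cd200*, a membrane glycoprotein of neurons, averaged 71.5 CPM in controls and rose with alleles lost, with a log2 fold change of 0.23 (SE 0.054, adjusted p = 0.019). The other 4 were not called, with log2 fold changes between 0.087 and 0.16. These correlations include the differences between genotypes and are given as a description.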

How the data were processed

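Per the study's methods and the labels, the authors aligned reads of poly(A) RNA with STAR (250a) and deposited raw counts per gene, whole numbers without normalization; mm9 is named, but the coordinates in the tables match GRCm38. Strand use and multi-mapped reads are not given in the sources used here. The members and gene lists were chosen with earlier results of these data known. Counts were scaled by TMM in edgeR 4.0.16 (R 4.3.3), genes above 1 CPM in at least 6 of 18 libraries were tested by the quasi-likelihood F-test (legacy form) on sex and alleles lost, and p-values were Benjamini-Hochberg adjusted over all genes tested in a tissue, with a call at 0.05. Residuals for correlations used log2 CPM with a prior count of 2. Replicates are separate animals.

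The hippocampal library of Sample_1160 was left out, because the study dropped an RNA sample as an outlier without naming it and this library stands apart. Without it the hippocampal fit called 636 of 14339 genes, the same counts that the study reports. DESeq2 1.42.0, other size factors, no filter, no sex term, thinning, a term for the range of animal numbers and leaving out each animal were alternatives; subsets without choroid-rich libraries, without animals above Sample_1219 or of Sample_1120 to Sample_1219, and controls without Sample_1129, were chosen after seeing the data. Both tissues come from the same animals by the numbers in the labels; the deviations of an animal's 2 libraries from their group means were correlated at a median r of 0.26, with a range from -0.14 to 0.43 and values above 0.1 in 15 of 17 animals. Named genes are the members, the 5 hippocampal genes with the highest correlation with *Dcx*, genes of the other lists called in the hippocampus, and otherwise up to 2 per list by control level (1 result is not reported here), except for a few that describe a library or a list (*Mki67*, *Prox1*, *Gabra6*, *Neurod6*, *Slc17a6*, *Dpysl5*) and cerebellar calls named after their values were seen (*Gfap*, *Lpar1*, *Gad2*, *Cdc20*). On simulated counts, edgeR called 68 of 100 hippocampal and 60 of 100 cerebellar genes changed by 0.25 (log2) per allele, with 11 and 6 false calls.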

Additional observations from a re-analysis of the deposited data

Results flagged for a closer look

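In all, 3 values lay apart from the rest of their genotype group, among 54 groups of a gene, tissue and genotype that were examined; chance alone flags about 1 in 20 such groups. *Eomes* was at 1.95 CPM in the hippocampus of cKO-/- Sample_1385, against at most 1.29 in the other 4 cKO-/- libraries. That library was also rich in choroid plexus genes, with a summed level of 4951 CPM, and the part of this in the *Eomes* value was not tested. *Dcx* was at 11.3 CPM in the cerebellum of cKO+/- Sample_1433, against at most 6.95 in the other 5; this library also held 3160 CPM of choroid plexus genes and 105 CPM of *Slc17a6*. *Calb2* was at 405 CPM in the cerebellum of control Sample_1170, against at least 590 in the other 5 controls.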

How the results depend on the processing

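In the hippocampus, 0 members were called per allele lost under 10 alternatives; DESeq2 called 2 (*Dcx* and *Nes*), and leaving out single animals gave 0 to 1 (1 without Sample_1120, Sample_1129, Sample_1219 or Sample_1385). Genotype pairs gave 0 calls with library Sample_1160 included, 3 with DESeq2 and 0 to 3 without single animals (3 without Sample_936, 2 without Sample_1176, 1 without Sample_1129, Sample_1219 or Sample_1385). In the cerebellum, the 2 calls became 1 with no filter, 0 with the term for the range of animal numbers, 1 among Sample_1120 to Sample_1219, 1 without choroid-rich libraries, 1 without animals above Sample_1219, and 1 to 3 without single animals; genotype pairs gave 1 to 2 without single animals, with 1 without Sample_936, Sample_938, Sample_1129, Sample_1172, Sample_1176, Sample_1190, Sample_1371, Sample_1379 or Sample_1385. In all of these cerebellar per-allele fits *Dcx* and *Sox4* stayed above 0, and the cause of lost calls was not tested. The share of all genes called under these alternatives is not given here, so the counts of members in both tissues cannot be set against it. With library Sample_1160, 1 correlation with *Dcx* passed (*Igfbpl1*), those of *Sox4* and *Calb2* turned to 0.59 and -0.31, that of *Draxin* rose to 0.58, and *Dcx* between cKO-/- and cKO+/- turned to -0.032. Reversals otherwise concerned effects near 0 that were never called. Hippocampal *Calb2* was -0.038 with no sex term, -0.0043 with genotype as a factor and -0.032 with the number term, and hippocampal *Sox11* was 0.037 with the number term and 4.6e-05 after thinning. Hippocampal *Igfbpl1* was -0.11 after thinning and -0.077 among Sample_1120 to Sample_1219. Leaving out single animals gave -0.083 to 0.10 for hippocampal *Calb2*, -0.039 to 0.016 for *Sox11*, -0.092 to 0.0017 for *Sox4* and -0.082 to 0.057 for *Igfbpl1*, and -0.091 to 0.013 for cerebellar *Calb2* and -0.11 to 0.14 for cerebellar *Eomes*. Cerebellar *Calb2* was 0.11 with the number term, 0.17 among Sample_1120 to Sample_1219, 0.0033 without choroid-rich libraries and 0.079 without animals above Sample_1219, and its difference between tissues was -0.16 with the number term. The animal as a replicate block left 0 members called between tissue effects and 6 between control tissues, and changed no other call. Depth limits *Eomes* in the hippocampus, at 9 to 52 counts per library, and *Igfbpl1*, *Neurog2* and *Draxin* in the cerebellum, which did not pass the filter on low counts.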
